A study of Mus musculus with 4 samples.

Results

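The Hippo pathway genes described here are the WWC scaffolds Wwc1 and Wwc2, the kinases Lats1 and Lats2, the coactivators Yap1 and Wwtr1 (TAZ), and the DNA-binding partners Tead1, Tead2, Tead3 and Tead4. They are 10 of the 27095 genes in the deposited count table, found by matching its Entrez identifiers to mouse symbols, and all 10 passed the filter on low counts. The pathway was taken up because Wwc2 differed most clearly between the genotypes in earlier results of these data, so the genotype difference of Wwc2 and the other members is given as a description and supports nothing. The measured mark is H3K27me3, a repressive histone modification. It was mapped in sorted alveolar macrophages of mouse lung by Cut&Tag, where an antibody brings a transposase to the mark and the chromatin there is cut and tagged. All animals were bone marrow chimeras: irradiated C57BL/6-Ly5.1 hosts received marrow that was 90% Ly5.2 and 10% wild-type Ly5.1. The Ly5.2 share was wild type in 2 libraries and Suz12 cKO (conditional knockout) in 2 libraries, which the labels give as biological replicates made from 100000 cells each. Not given in the labels are the Cre driver, the deleted part of Suz12, the age of the mice and whether the sort used Ly5.1 and Ly5.2. Cells of the hosts and of the wild-type marrow share could thus be present in both groups, and a change of the mark in all cells cannot be told apart from a larger change in a share of them.

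In the Hippo pathway, a kinase cascade restrains a pair of transcriptional coactivators. MST kinases with the adaptor SAV1 activate LATS kinases with their MOB1 cofactors, and LATS phosphorylates YAP and TAZ, which then stay in the cytoplasm or are degraded. WWC proteins and NF2 promote LATS activity, while unphosphorylated YAP and TAZ enter the nucleus and bind TEAD factors to drive genes of growth, adhesion and matrix. SUZ12 is an obligate subunit of PRC2, the complex that writes H3K27me3. Only the mark was counted here, and neither PRC2 binding nor the expression of these genes was measured.

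The libraries held 2142175 to 2592297 counts over gene windows in wild type and 3331138 to 3567282 in cKO. Windows cover genes with flanking sequence, so promoter and gene body cannot be separated. Of 25204 genes matched to the reference, 11525 had a window equal to the reference span with 3 kb on both sides. The other windows, that of Wwc2 among them, had other lengths. Levels are given as CPM (counts scaled to library size with TMM factors), and per kb of window where genes are compared. Such scaling takes the typical gene as unchanged. Gains and losses below are thus relative to the other genes, and a change of the mark shared by all genes would not show. The Suz12 window held 8 and 10 counts in wild type and 11 and 10 in cKO, which does not check the deletion. Alveolar macrophage marker genes, 15 in number, were little marked, with list medians of 0.106 to 0.116 CPM per kb (wild type) and 0.147 to 0.161 (cKO), and 1 of the 15 was at 0 in all libraries. Their summed level was 71.0 to 77.9 CPM in wild type and 95.2 to 99.4 CPM in cKO. Of the 15, 8 passed the count filter, and 0 of these were called by edgeR. Marker lists of T cells, B cells, lung epithelium, endothelium, and fibroblasts and muscle had medians of 0.692 to 4.10 CPM per kb over the 4 libraries. By edgeR 1 of 9 tested genes gained in the epithelial list and 1 of 7 in the fibroblast and muscle list, beside 4.46% of all tested genes. In the T cell, B cell and endothelial lists, with 8, 5 and 8 tested genes, 0 were called. The part of other cells in the results below was not tested.

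The members spanned a wide range of H3K27me3, with Yap1 and 3 of the 4 Tead genes at the top and the Lats kinases at the bottom. In wild type the order per kb was Yap1, Tead3, Tead4, Tead1, Wwc1, Wwtr1, Tead2, Wwc2, Lats2 and Lats1, from 7.74 ± 0.54 down to 0.101 ± 0.017 CPM per kb (SD, n = 2 libraries, as for every mean below). For each gene in that order, both wild-type libraries lay above both of the next gene, so no pair of neighbours overlapped. The cKO order was the same except that Wwc2 moved above Wwtr1 and Tead2. The median of all tested genes was 0.672 CPM per kb in wild type, and 6 of the 10 members lay above it. A list of 26 broadly expressed housekeeping genes, taken as a low reference, had medians of 0.0770 to 0.121 CPM per kb in the 4 libraries. The plot of member levels by library shows both Lats genes at or near this reference.

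**Figure D1:**
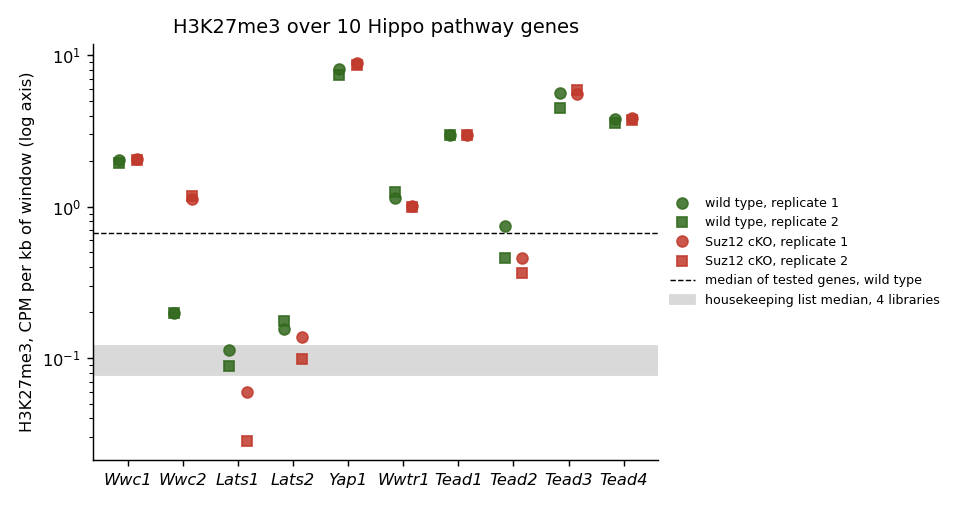
H3K27me3 in CPM per kb of gene window (log axis) for the 10 Hippo pathway genes, 1 point per library, with the wild-type median of tested genes (0.672) and the range of housekeeping medians. Wwc2 stands at 0.197 and 0.198 in wild type and at 1.12 and 1.18 in cKO, and Tead1 lies at 2.97 to 2.998 in all 4 libraries.

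The promoters of 4 members are shown because they hold similar or different numbers of CpG dinucleotides, the sequence feature around which mammalian PRC2 is known to gather, at genes of very different mark. They are RefSeq sequences of GRCm38.p6, 250 bases before to 50 bases after the annotated start, written 5′ to 3′ on the strand of the gene, with CpG in capitals. Yap1 lies at chr9:8004547-8004846 (minus strand), Wwc2 at chr8:47990495-47990794 (minus), Lats1 at chr10:7680959-7681258 (plus) and Tead2 at chr7:45215542-45215841 (plus).
Yap1: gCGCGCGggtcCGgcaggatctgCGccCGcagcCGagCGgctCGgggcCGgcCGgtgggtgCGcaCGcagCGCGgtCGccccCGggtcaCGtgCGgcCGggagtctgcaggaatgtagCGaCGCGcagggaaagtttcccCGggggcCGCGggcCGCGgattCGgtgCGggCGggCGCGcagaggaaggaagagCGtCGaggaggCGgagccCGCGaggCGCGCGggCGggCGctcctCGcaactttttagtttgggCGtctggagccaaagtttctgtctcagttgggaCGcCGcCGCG
Wwc2: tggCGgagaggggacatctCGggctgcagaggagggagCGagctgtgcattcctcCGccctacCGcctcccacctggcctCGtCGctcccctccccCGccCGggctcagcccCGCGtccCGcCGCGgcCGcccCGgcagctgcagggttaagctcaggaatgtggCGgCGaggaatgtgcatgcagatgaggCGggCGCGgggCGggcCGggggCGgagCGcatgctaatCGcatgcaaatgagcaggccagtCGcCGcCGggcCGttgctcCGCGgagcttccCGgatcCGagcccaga
Lats1: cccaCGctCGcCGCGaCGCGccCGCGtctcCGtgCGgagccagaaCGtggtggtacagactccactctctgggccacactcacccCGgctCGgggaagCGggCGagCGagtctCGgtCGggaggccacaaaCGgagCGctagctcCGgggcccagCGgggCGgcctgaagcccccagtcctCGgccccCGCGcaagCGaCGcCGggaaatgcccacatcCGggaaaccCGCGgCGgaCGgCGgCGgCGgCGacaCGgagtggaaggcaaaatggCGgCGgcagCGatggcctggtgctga
Tead2: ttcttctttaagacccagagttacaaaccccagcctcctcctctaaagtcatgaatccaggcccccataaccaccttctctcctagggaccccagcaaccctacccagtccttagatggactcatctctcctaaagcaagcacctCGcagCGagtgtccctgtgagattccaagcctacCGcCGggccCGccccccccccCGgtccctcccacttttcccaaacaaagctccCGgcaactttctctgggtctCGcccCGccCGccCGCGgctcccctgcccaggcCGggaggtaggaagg

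These 300 bases hold 49 CpG in Yap1, 34 in Wwc2, 42 in Lats1 and 13 in Tead2, against a median of 7 and a 90th percentile of 31 over 32851 promoters. Yap1 and Lats1, the most and the least marked member per kb of full window, thus both have CpG-rich promoters. Wwc1 holds 27 CpG, the upstream start of Lats2 37 and its downstream start 4, the 3 starts of Tead3 25 to 34, and the 2 starts of Wwtr1 19 and 20. Promoters were found for 8 members, and Tead1 and Tead4 were not matched. The TEAD motif core GGAATG, on either strand, occurs 3 times in the Wwc2 window and 3 times in 1 of the 3 Tead3 windows. It occurs 1 time in another Tead3 window, in the Yap1 window, in the upstream Lats2 window and in both Wwtr1 windows, and 0 times in those of Wwc1, Lats1 and Tead2, the downstream Lats2 window and the third Tead3 window. In all it is found in 7 of the 12 member windows, some of which overlap, and in 14.7% of all promoters of this length. A match describes letters only.

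Wwc2, a WW-domain scaffold of the LATS activating complex, went from a low level to one above the median gene. Its gene lies on chromosome 8 (47826082 to 47990544 in mm10). The window held 86 and 73 counts in wild type and 621 and 685 in cKO. In CPM these are 33.3 and 33.4 in wild type and 190 and 200 in cKO, so the groups stood far apart and the replicates close together. The log2 fold change was 2.54 ± 0.14 (SE), and it ran from 2.46 to 2.79 over 12 alternative fits. Per kb its percentile among tested genes was 24.1 in wild type and 65.0 in cKO. Other windows overlap 3.16% of that of Wwc2, where reads were mostly not counted.

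Wwc1 (KIBRA), its paralog on chromosome 11 (35838399 to 35980527), carried the mark in both genotypes. Its values were 297 and 286 CPM in wild type and 304 and 298 CPM in cKO. The cKO values lie barely above the wild-type values (log2 fold change 0.04 ± 0.10), and the sign turned under 3 of 12 alternative fits. Per kb, Wwc1 exceeded Wwc2 by 10.3 and 9.85 times in the wild-type libraries and by 1.84 and 1.71 times in the cKO libraries. The paralogs thus stood closer together in cKO, where Wwc2 was higher. The scatter of cKO against wild-type level shows Wwc2 well above the line of equal levels, Lats1, Lats2 and Tead2 below it at low levels, and Wwc1, Yap1, Tead1, Tead3 and Tead4 close to it.

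**Figure D2:**
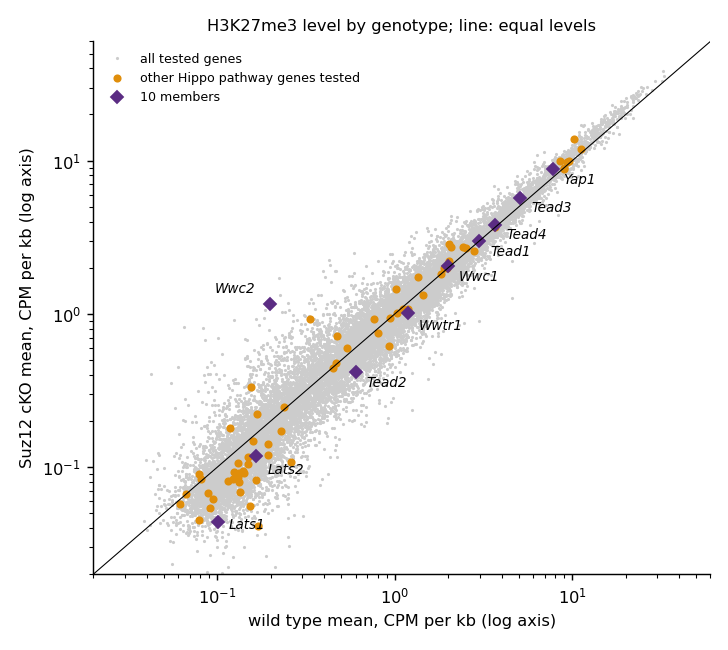
Mean H3K27me3 in CPM per kb in wild type (x) and Suz12 cKO (y), both log axes, for all tested genes (grey), the other tested Hippo pathway genes (orange) and the 10 members (purple), with the line of equal levels. Wwc2 lies at 0.198 and 1.15, while Yap1, at 7.74 and 8.76, lies near the line.

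Of the genes next to Wwc2, those with enough counts for the fit did not pass its threshold. Within 500 kb of its window lie 10 other gene windows, and 4 of them passed the count filter. Dctd, a nucleotide deaminase gene upstream, held 71 and 59 counts in wild type and 101 and 91 in cKO, with overlapping groups in CPM (log2 fold change 0.07 ± 0.21, edgeR adjusted p = 0.911). Tenm3, a teneurin gene farther upstream, had a log2 fold change of 0.23 ± 0.10 (edgeR adjusted p = 0.185). Its groups did not overlap, at 169 and 203 CPM in wild type and 213 and 223 in cKO, as at 47.6% of all tested genes. Stox2, downstream, had a log2 fold change of −0.05 ± 0.10 (adjusted p = 0.841) and the pseudogene Gm8623 one of −0.03 ± 0.48 (adjusted p = 0.984). Scaled to library totals, the cKO to wild-type ratio of counts was 5.64 (4.78 to 6.69) for Wwc2, 1.01 (0.807 to 1.28) for Dctd, 1.14 (1.05 to 1.24) for Tenm3 and 0.931 (0.859 to 1.01) for Stox2. The brackets are exact binomial 95% intervals, which cover counting error only. The Wwc2 ratio comes from the contrast that chose the gene and stands here as a description. The other 6 windows (Cldn22, Cldn24, Cdkn2aip, Ing2, Rwdd4a and Trappc11) held 3 to 14 counts summed over the wild-type libraries and 5 to 24 over the cKO libraries. Cldn24 and Cldn22, claudin genes just past the 3′ end of Wwc2, had ratios of 1.65 (0.759 to 3.86) and 1.54 (0.431 to 6.86). Other windows overlap 64.9% of the Cldn24 window, 100% of that of Cldn22 and 14.9% of that of Tenm3, so these values are uncertain. Overlaps and distances follow the reference spans, which are longer than the deposited windows for Tenm3 and Stox2. For Gm8623 the reference span (47632276 to 47632779) is far shorter than its window of 20.8 kb, so its place and overlap are uncertain. Stox2 stood at 1.25 ± 0.05 CPM per kb (wild type) and 1.20 ± 0.05 (cKO), near the cKO level of Wwc2, as the map of neighbouring windows shows.

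**Figure D3:**
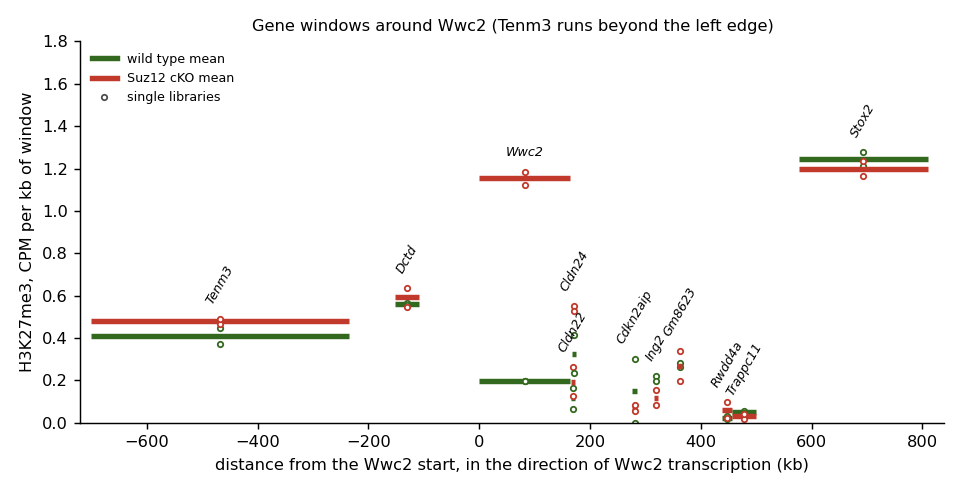
H3K27me3 in CPM per kb of window for genes within 500 kb of Wwc2, placed by the distance of their reference span from the Wwc2 start (kb, in the direction of its transcription), with bars for group means and open points for single libraries. The Wwc2 bars stand far apart (0.198 and 1.15), while those of Dctd, Tenm3 and Stox2 lie close together, though the Tenm3 groups do not overlap.

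The genes whose 4 values lay nearest to those of Wwc2, by Euclidean distance over log2 CPM per kb in the 4 libraries, were Kdm5b (distance 0.380), Igkv2-112 (0.593), Cyria (0.618), Klrc3 (0.643) and Emb (0.724). Kdm5b encodes an H3K4 demethylase, Cyria a regulator of the actin cytoskeleton, Klrc3 a natural killer cell receptor, Igkv2-112 an immunoglobulin light chain segment and Emb the adhesion molecule embigin. Kdm5b had 0.158 and 0.215 CPM per kb (wild type) and 1.06 in both libraries of cKO. Igkv2-112 rests on 4 and 2 counts in wild type and 20 and 22 in cKO, and it and Klrc3 have close relatives that may share reads. Other windows overlap 28.4% of that of Cyria and 9.62% of that of Kdm5b. The likeness covers 4 libraries only.

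Lats1 and Lats2, the kinases that phosphorylate YAP and TAZ, carried little mark, at wild-type percentiles of 6.41 and 19.4 per kb among tested genes. Lats1 (chromosome 10, 7681200 to 7716461) held 12 and 8 counts in wild type and 8 and 4 in cKO, or 4.65 and 3.66 against 2.45 and 1.17 CPM. Its wild-type values lie above both cKO values, but its log2 fold change of −1.20 ± 0.66 rests on these few counts and on a window that others overlap by 14.9%. Lats2 (chromosome 14, 57689662 to 57746212), also a YAP target, held 25 and 24 counts in wild type and 28 and 21 in cKO, or 9.69 and 11.0 against 8.56 and 6.13 CPM. Its log2 fold change was −0.49 ± 0.38. Both genes fell short of the threshold, and with standard errors of this size the counts do not show whether either kinase gene differed.

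Yap1, the main coactivator of the pathway, was the most marked member per kb of full window, though Tead3 stood above it per kb of window not shared with other genes. On chromosome 9 (7931999 to 8004638), it had 639 and 578 CPM in wild type and 701 and 677 CPM in cKO. Both cKO values lie above both wild-type values, with a log2 fold change of 0.18 ± 0.08 (edgeR adjusted p = 0.229). Its percentile per kb among tested genes was 96.7 in wild type and 97.0 in cKO. Wwtr1, which encodes its paralog TAZ (chromosome 3, 57455644 to 57575910), had 143 and 157 CPM in wild type and 128 and 126 CPM in cKO. Here both cKO values lie below both wild-type values (log2 fold change −0.24 ± 0.11, edgeR adjusted p = 0.224), and with housekeeping scaling the sign turned (0.0046). Groups were likewise apart at 47.6% of all tested genes, so neither separation stands out. Per kb, Yap1 exceeded Wwtr1 by 7.15 and 5.92 times in wild type and by 8.78 and 8.64 times in cKO. The 2 paralogs thus stood far apart in level in both genotypes, and neither showed a difference of the size seen at Wwc2.

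Among the TEAD factors, which carry YAP and TAZ to DNA, 3 of 4 were well marked and none separated by genotype. Tead1 (chromosome 7, 112679356 to 112906784) had 700 and 693 CPM in wild type and 695 and 698 CPM in cKO. These are the closest values of any member, with a log2 fold change of −0.00056 ± 0.08, and its sign turned under 7 of 12 alternative fits. Tead4 (chromosome 6, 128227143 to 128300813) had 301 and 286 CPM in wild type and 309 and 296 CPM in cKO, with overlapping groups and a log2 fold change of 0.04 ± 0.10 whose sign turned under 3 of 12 fits. Tead3 (chromosome 17, 28331671 to 28350805) had 143 and 114 CPM in wild type and 139 and 149 CPM in cKO, again overlapping (0.16 ± 0.11). Per kb the wild-type percentile among tested genes was 88.4 for Tead1, 91.0 for Tead4 and 94.1 for Tead3. Tead2 (chromosome 7, 45215792 to 45233468) was the exception, at percentile 47.2, with 17.8 and 11.0 CPM in wild type and 11.0 and 8.76 CPM in cKO. Tead3 exceeded it per kb by 7.60 and 9.81 times in the wild-type libraries. Other windows overlap 42.4% of the Tead3 window and 34.7% of that of Tead2. Per kb of unshared window, Tead3 stood at 8.85 in wild type, above Yap1, and Tead2 at 0.925 CPM per kb.

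Of the 10 members, 1 (Wwc2) was called at an adjusted p below 0.05 by edgeR's quasi-likelihood test, against 6.42% of 16752 tested genes. The contrast had chosen Wwc2, so nothing is read from that count. The groups did not overlap at 6 of the 10, against 47.6% of all tested genes. The median log2 fold change was 0.02 over the members and −0.01 over all tested genes. Of all tested genes, 4.46% gained and 1.96% lost the mark. The share of gains among all calls was 69.4%, and it was 55.7% without TMM factors, 48.8% under upper-quartile factors and 88.6% by DESeq2's Wald test. It was 93.7% under housekeeping scaling, which moved the median log2 fold change of all genes up by 0.24. That scaling uses summed counts of the little-marked housekeeping list, in which 8 of 26 genes passed the count filter. In the main fit these 8 had a median log2 fold change of −0.22. At an edgeR unadjusted p below 0.05, 0 of the 8 were higher and 3 lower in cKO, beside 10.3% and 8.26% of all tested genes. Results under this scaling thus rest on few counts.

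The wider pathway was read through 87 genes listed by role, of which 86 are in the table and 74 passed the count filter. The list includes the 10 members and was chosen with earlier results of these data known. Leaving the members out, 7 of 64 tested genes gained and 3 lost H3K27me3 in cKO, beside 4.46% and 1.96% of all genes. Their median log2 fold change was −0.03, beside −0.01 over all genes. The gains were Frmd6, Dchs1, Tgfb2, Nt5e, Arhgef17, Fjx1 and Crim1, and the losses Amot, Taok3 and Ccdc80. The plot of changes by role shows where they fall.

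**Figure D4:**
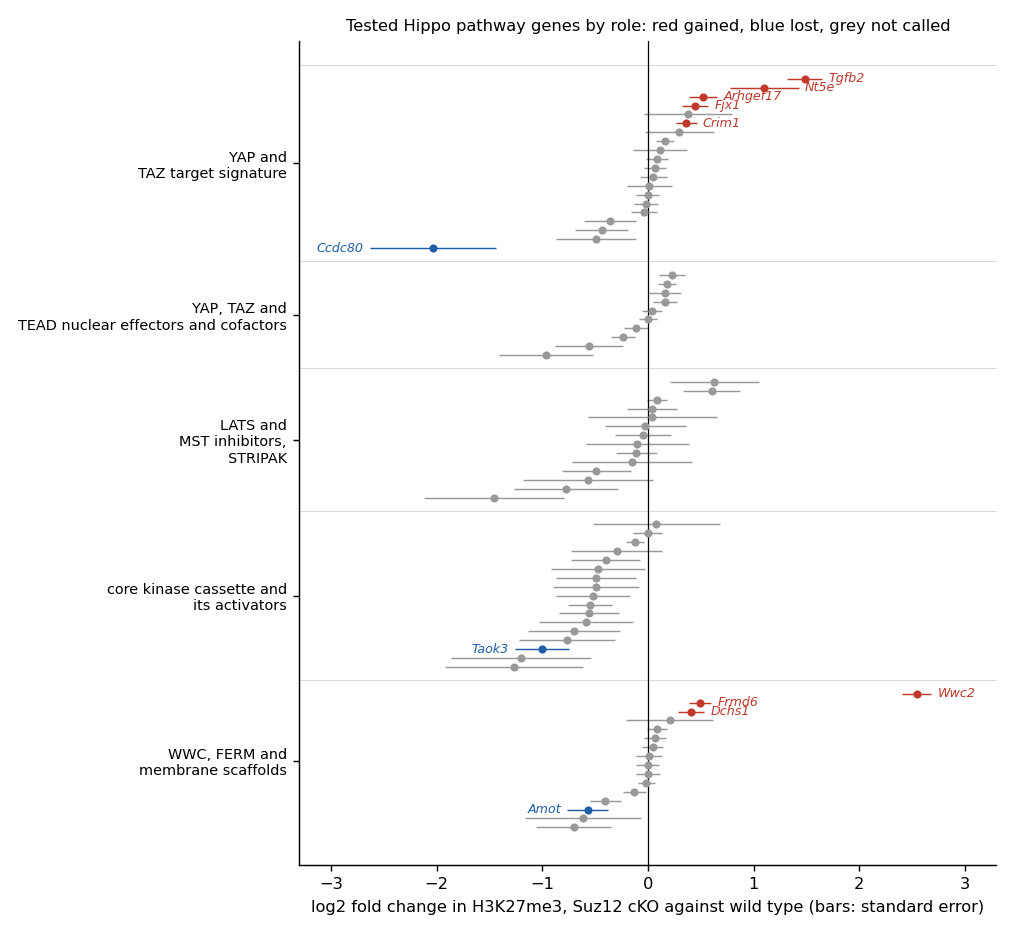
Log2 fold change in H3K27me3, Suz12 cKO against wild type, with its standard error, for each tested Hippo pathway gene, grouped by role (a gene with 2 roles appears under both). Called genes are named: Wwc2 lies at 2.54 and Tgfb2 at 1.48, and most genes of the kinase cassette list lie left of 0 in grey.

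Membrane scaffolds and polarity proteins, which pass cell contact to the kinases, held the pathway's other upstream gains. Beside the WWC genes, 2 of 14 tested gained and 1 lost, beside 4.46% and 1.96% of all tested genes, with a median log2 fold change of −0.0017. Frmd6 (Willin), a FERM-domain activator of the pathway, rose from 176 and 158 CPM in wild type to 229 and 243 CPM in cKO, a log2 fold change of 0.50 ± 0.10 (edgeR adjusted p = 0.000188). Dchs1, an atypical cadherin and ligand of FAT4, rose from 81.8 and 86.1 to 114 and 108 CPM (0.41 ± 0.13, adjusted p = 0.0287). Amot (angiomotin), which binds YAP at junctions, fell from 42.7 and 43.5 to 27.8 and 30.1 CPM (−0.57 ± 0.19, adjusted p = 0.0477), and with the replicate block its adjusted p was 0.0505. The 2 most marked uncalled scaffolds were Amotl2, at 9.33 ± 1.04 CPM per kb (wild type) and 9.78 ± 0.97 (cKO), and Dlg5, at 8.99 ± 0.84 and 8.89 ± 0.48.

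The core kinase cassette and its activators, cofactors that are not kinases included, carried little mark at most genes. Over the 22 genes of this list, Lats1 and Lats2 included, the median level was 0.131 CPM per kb (wild type) and 0.0927 (cKO). Of the 22, 2 lay above the median of all tested genes. Of 17 tested, 0 gained and 1 lost by edgeR and 0 were called by DESeq2. At an unadjusted p below 0.05, 0 were higher and 2 lower in cKO, beside 10.3% and 8.26% of all tested genes. Taok3, a kinase that activates the MST and LATS kinases, fell from 26.4 and 26.6 to 14.4 and 11.97 CPM (−1.01 ± 0.26, adjusted p = 0.00385). The 16 others had no call. The median log2 fold change of the 17 was −0.52, and 16 of them were below 0. Low levels went with negative values in the whole table: 4782 tested genes with a mean under 0.25 CPM per kb had a median of −0.30, with 71.9% below 0. The 15 genes of this list under that level had a median of −0.55. The 2 most marked of the list were Tnik, at 1.45 ± 0.02 CPM per kb (wild type) and 1.33 ± 0.04 (cKO), and Rassf5, at 0.942 ± 0.025 and 0.940 ± 0.074.

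Inhibitors of LATS and MST, among them the LIM proteins and the STRIPAK phosphatase complex, were as little marked, with medians of 0.142 CPM per kb (wild type) and 0.119 (cKO) over 16 genes. Of 14 tested, 0 were called in either direction by edgeR or DESeq2. At an unadjusted p below 0.05, 1 was higher and 1 lower in cKO, which is near the share over all tested genes (10.3% and 8.26%). Mark1, a polarity kinase, stood highest at 2.51 ± 0.03 and 2.67 ± 0.09 CPM per kb, and Ajuba, a LIM protein that binds LATS, at 1.12 ± 0.22 and 1.07 ± 0.04.

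The nuclear effectors and cofactors were the most marked role group. The median of their 10 genes was 2.89 CPM per kb (wild type) and 2.85 (cKO), and 4 of the 10 lay in the top 10% of tested genes. Beside the 6 members, the group holds the Vestigial-like genes Vgll1 to Vgll4, whose products compete with YAP for TEAD or act with it. Of these 4, 0 were called by DESeq2 and 0 by edgeR, where 4.46% of all tested genes gained and 1.96% lost. At an unadjusted p below 0.05 by edgeR, 0 were higher and 1 lower in cKO, beside 10.3% and 8.26% of all tested genes. So few genes cannot show a difference from these shares. Vgll2 had 9.57 and 7.42 CPM per kb (wild type) and 9.21 and 10.8 (cKO), a level like that of Yap1, with overlapping groups.

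The YAP and TAZ target signature held 5 of the 7 gains outside the members. Of 19 tested targets other than Lats2, 5 gained and 1 lost, beside 4.46% and 1.96% of all tested genes, and the median log2 fold change was 0.08, beside −0.01. The list was chosen with earlier results known, Tgfb2 among them, and was not tested against other genes. Tgfb2, a TGF-β ligand, rose from 27.1 and 32.1 CPM in wild type to 78.3 and 86.4 CPM in cKO (log2 fold change 1.48 ± 0.16, adjusted p = 8.18e-15), and like Wwc2 it was called under all 12 alternative fits. Nt5e, the ectonucleotidase CD73, rose from 7.37 and 8.24 to 16.5 and 16.9 CPM (1.10 ± 0.33, adjusted p = 0.0198), on 18 to 58 counts a library. Arhgef17 rose from 75.2 and 63.2 to 103 and 97.0 CPM (0.52 ± 0.13, adjusted p = 0.00385). Fjx1, the ortholog of the fly kinase Four-jointed, rose from 90.7 and 80.6 to 108 and 126 CPM (0.45 ± 0.13, adjusted p = 0.0114). Crim1, a BMP-binding membrane protein, rose from 242 and 253 to 313 and 323 CPM (0.36 ± 0.10, adjusted p = 0.00662). Ccdc80, a matrix protein, fell from 8.53 and 5.04 to 1.53 and 1.75 CPM (−2.03 ± 0.60, adjusted p = 0.0176), on 5 to 22 counts a library. The most marked targets had no call: F3 (tissue factor) stood at 11.3 ± 1.3 CPM per kb (wild type) and 11.9 ± 0.5 (cKO), and Ccn2 (CTGF), a standard readout of YAP activity, at 9.56 ± 0.35 and 9.89 ± 0.09.

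Apart from Wwc2 and Tgfb2, each of these calls was lost when 1 library was left out. Without cKO replicate 2 the adjusted p was 0.0843 for Frmd6, 0.210 for Dchs1, 0.242 for Crim1, 0.477 for Fjx1, 0.0634 for Arhgef17, 0.133 for Nt5e, 0.208 for Amot, 0.116 for Taok3 and 0.190 for Ccdc80. Without cKO replicate 1 it was 0.290 for Dchs1, 0.0953 for Crim1, 0.131 for Arhgef17, 0.0743 for Nt5e, 0.294 for Amot and 0.169 for Ccdc80. Without wild-type replicate 1 it was 0.142 for Dchs1, 0.131 for Nt5e, 0.154 for Amot and 0.490 for Ccdc80, and without wild-type replicate 2 it was 0.120 for Fjx1, 0.101 for Arhgef17, 0.0650 for Nt5e, 0.199 for Amot and 0.0531 for Ccdc80. By DESeq2, Frmd6 (adjusted p = 0.00468) and Crim1 (0.0219) were called beside Wwc2 and Tgfb2, while Dchs1 (0.198), Fjx1 (0.146), Arhgef17 (0.0865), Amot (0.379) and Taok3 (0.133) were not, and for Nt5e and Ccdc80 it gave no adjusted p. Other scalings or filters also ended calls: housekeeping scaling those of Crim1 (adjusted p = 0.0573), Taok3 (0.0922) and Amot (0.459), upper-quartile factors those of Dchs1 (0.114) and Fjx1 (0.0671), library totals alone that of Dchs1 (0.0692), and dropping the count filter that of Amot (0.0829).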

How the data were processed

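H3K27me3 Cut&Tag libraries (4, from 100000 sorted alveolar macrophages each, sequenced as paired 36 bp reads per the labels) were grouped by their titles. The authors deposited whole-number counts per gene window; per the submitters' processing notes the counter was featureCounts and the build mm10. No label names the aligner, the duplicate handling or the counting options. Window lengths (bp, also deposited) equalled the reference gene span plus 6000 bp for 11525 of 25204 matched genes. Of 2446 windows lying wholly within others, 67.1% had no counts, against 1.27% of 10808 that overlap none, so reads in overlaps were mostly not counted. Symbols, positions and promoters came from RefSeq tables of GRCm38.p6 (93.0% of identifiers matched), and overlaps were computed with 3 kb on both sides.

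CPM used TMM factors over the filtered genes. Genotypes were compared with edgeR 4.0.16 (R 4.3.3; filterByExpr, glmQLFit, glmQLFTest, genotype only), adjusted by Benjamini-Hochberg over 16752 genes at a threshold of 0.05, with DESeq2 1.42.0 as an alternative. Standard errors were taken as the log2 fold change over the root of the F statistic. The code was tested on simulated data, where it called 50.7% of 1.5-fold, 68.7% of 2-fold and 93.9% of 3-fold changes. These changes were not placed at genes of the lowest counts, so a gene without a call may still differ. Replicates differed by more than sampling noise (chi-square per degree of freedom 1.98 in wild type and 1.83 in cKO), and p-values measure only the spread between these libraries. Members, lists and rules were chosen with earlier results of these data known. Named genes are the members, called genes of the wider list, the 2 most marked uncalled genes per role, all genes within 500 kb of Wwc2, and the 5 genes nearest to it in level (log2 of counts plus 0.5), leaving out predicted genes and microRNAs.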

Additional observations from a re-analysis of the deposited data

How the results depend on the processing

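Wwc2 kept its gain and its call under all 12 alternative fits, and no other member was called under any fit that gave it an adjusted p: 12 fits for most members but 10 for Lats1, Lats2 and Tead2, which fell below a mean of 50 counts and had no adjusted p from DESeq2. All these fits reuse libraries of the contrast that chose Wwc2, so its call under them is a description and supports nothing. With upper-quartile factors 494 genes gained and 519 lost, against 747 and 329. Housekeeping scaling left 60 losses, 1 of them in the wider Hippo list (against 3). DESeq2's Wald test called 334 gains and 43 losses, and in the wider list 4 gains (against 8 with Wwc2) and 0 losses (3 falls at an unadjusted p below 0.05). Leaving out 1 library at a time gave 350 to 738 gains and 76 to 207 losses over all genes, and 2 to 6 gains and 0 to 2 losses in the wider list, the fewest without cKO replicate 2 (6 falls at an unadjusted p below 0.05). Signs turned at 4 members. The log2 fold change of Tead1 was 0.0020 with DESeq2 size factors, 0.25 with housekeeping scaling, 0.018 without a count filter, 0.018 by DESeq2, and −5.9e-05 to 0.013 without 1 library. Wwc1 and Tead4 were at −0.011 and −0.012 with library totals alone, −0.041 and −0.042 with upper-quartile factors, and −0.0091 and −0.010 when tested genes needed 50 counts on average, and Wwtr1 was at 0.0046 with housekeeping scaling. Per kb of unshared window, Wwc2 was at 0.204 and Lats1 at 0.118 CPM in wild type, Tead2 at 0.925 and 0.634 and Tead3 at 8.85 and 9.92 in wild type and cKO. Apart from these lengths, the cause of each shift was not tested. With the replicate number as a block, 733 genes gained and 306 lost, with 8 and 2 in the wider list. Deviations of same-numbered libraries had a correlation of 0.0095 across genes, so no shared deviation was seen. This value cannot show whether same-numbered libraries were prepared together. Counts of 4 to 28 a library limit the values of Lats1 and Lats2.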
